A study of Mus musculus with 2 samples.

Results

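The 9 genes described here encode receptors for sphingosine 1-phosphate (S1P) and the proteins that make, export and break down this lipid. They were taken by symbol from a list of 9, and all 9 were found among the 24062 genes of the count tables. They are the receptor genes S1pr1, S1pr2, S1pr3 and S1pr4, the sphingosine kinase genes Sphk1 and Sphk2, the exporter gene Spns2, the S1P lyase gene Sgpl1 and the S1P phosphatase gene Sgpp1. RNA was sequenced from CD31+ KITint cells of the aorta of C57BL6 mouse embryos on embryonic day 11. Their cell type is labelled as haematopoietic progenitor. The cells had been sorted on the Gata2Venus transgene, a fluorescent reporter named for the blood transcription factor gene Gata2, and the labels enter its absence or presence as the genotype. The Gata2Venus-negative and Gata2Venus-positive groups, below Venus-negative and Venus-positive, held 1 library each, so differences are between these libraries, without a replicate check or p-value. The series title names Gata2-independent progenitors, and the comparison sets the RNA of reporter-negative cells against that of reporter-positive cells.

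S1P is a signalling lipid. Sphingosine kinases make it inside the cell, transporters release it, and S1P lyase and phosphatases remove it, so that blood holds much more than the tissues do. G protein-coupled receptors on the cell surface read it. In the embryo S1P signalling through S1pr1 is known for stabilising new vessels and for their coverage by mural cells, and in adults it guides blood and immune cells out of tissues.

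Counts in genes totalled 10135400 in the Venus-negative and 9715131 in the Venus-positive library. Levels are given as CPM (TMM-scaled counts relative to library size), with exact 95% Poisson intervals (CI). The rule of size asked for 10 CPM and 50 counts in the higher library and for an exact 95% ratio interval that excludes every value within 2-fold. All intervals reflect counting error alone, and, since no molecular identifiers are named, PCR copies of a molecule may count more than once. The sort check followed the labels for Gata2, with 141 and 664 counts (13.5 and 70.2 CPM in the Venus-negative and Venus-positive library). Kit, whose product set the KITint gate of both groups, was at 199 and 60.7 CPM, and Pecam1, which encodes CD31, was at 537 and 489 CPM. Of 10 blood progenitor markers, Kit was past the rule on the Venus-negative side (log2 ratio 1.71). Ptprc, Runx1, Spi1, Lyl1 and Lmo2 were past it on the Venus-positive side, and Cd34 was not past it. Over all genes tested, 15.2% were past it on the Venus-negative and 14.9% on the Venus-positive side. Spn and Gfi1 had 0 counts in both libraries and Myb had 0 in the Venus-negative library. Runx1, a factor needed for blood cells to emerge from endothelium, had 21 and 303 counts, and the pan-leukocyte gene Ptprc had 194 and 498. Both libraries also held endothelial and mesenchymal transcripts, at levels given beside the results they move with. In bulk RNA, fewer cells of a type and less RNA per cell cannot be told apart.

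Of the 9 genes, 8 passed the filter of 10 CPM and 50 counts, and Sphk1 did not. S1pr2 and S1pr3 were past the rule and higher in the Gata2Venus-negative library, and S1pr4 and Spns2 were past it and higher in the Gata2Venus-positive library. S1pr1, Sphk2, Sgpl1 and Sgpp1 were not past the rule. Over all 10381 genes tested, 30.1% were past it in either direction, 15.2% higher in the Venus-negative and 14.9% higher in the Venus-positive library, so that calls were common in this comparison. Expressed as the log2 of Venus-negative over Venus-positive, the median ratio was −0.03 over the 8 S1P genes, with S1pr4 at its bound, and −0.0023 over all genes tested. The genes that were past the rule therefore went both ways, and the receptors themselves were split.

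The promoter sequences of the 4 genes past the rule are shown because these genes carry the differences between the libraries. They come from RefSeq (GRCm38.p6, the assembly that mm10 names), in which 8 of the 9 genes had a window, and cover the 250 bases before the start, 5′ to 3′ on the gene's strand. Capitals mark letters that match a GATA word (AGATAA or TGATAA), a RUNX word (TGTGGT or TGCGGT) or a GC box (GGGCGG) on either strand, and no match overlapped another in these windows. The S1pr2 window lies at chr9:20976794-20977043 on the minus strand, the S1pr3 window at chr13:51408368-51408617 on the plus strand, the S1pr4 window at chr10:81500138-81500387 on the minus strand and the Spns2 window at chr11:72475028-72475277 on the minus strand.
S1pr2: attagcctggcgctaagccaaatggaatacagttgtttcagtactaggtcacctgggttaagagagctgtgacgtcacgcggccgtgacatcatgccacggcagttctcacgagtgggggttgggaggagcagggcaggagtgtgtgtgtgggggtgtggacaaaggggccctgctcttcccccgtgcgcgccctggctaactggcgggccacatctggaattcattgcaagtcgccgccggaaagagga
S1pr3: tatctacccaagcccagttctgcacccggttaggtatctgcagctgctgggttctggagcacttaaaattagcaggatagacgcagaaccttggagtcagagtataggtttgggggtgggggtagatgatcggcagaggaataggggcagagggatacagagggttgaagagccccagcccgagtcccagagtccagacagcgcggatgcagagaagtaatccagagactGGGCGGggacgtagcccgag
S1pr4: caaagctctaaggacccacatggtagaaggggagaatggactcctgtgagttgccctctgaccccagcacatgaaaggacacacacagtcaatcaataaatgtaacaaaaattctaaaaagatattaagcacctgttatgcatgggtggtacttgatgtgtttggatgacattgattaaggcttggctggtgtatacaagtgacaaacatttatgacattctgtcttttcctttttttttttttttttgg
Spns2: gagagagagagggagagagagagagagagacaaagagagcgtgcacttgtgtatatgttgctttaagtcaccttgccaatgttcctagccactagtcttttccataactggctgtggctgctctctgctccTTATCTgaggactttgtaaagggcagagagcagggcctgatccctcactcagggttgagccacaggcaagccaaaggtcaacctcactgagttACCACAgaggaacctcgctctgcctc

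Among these 4 windows, the Spns2 window held 1 GATA word, AGATAA on the opposite strand at 119 to 114 bases before the start, and 1 RUNX word, TGTGGT on the opposite strand at 26 to 21 bases before it. The S1pr3 window held 1 GC box at 20 to 15 bases before the start, and no searched word was found in the S1pr2 and S1pr4 windows. Among the windows not shown, GATA words lay in windows of Sphk1, and RUNX words in windows of Sphk1, Sphk2 and Sgpl1. GC boxes lay in windows of Sphk2 and Sgpl1. Sphk2 and Sgpl1 passed the filter and were not past the rule, so RUNX words and GC boxes were not particular to genes past it. Sphk1 had 0 counts in both libraries and could not be past the rule. For GATA words, found only in windows of Spns2 and Sphk1, no such comparison can be made. Of 32851 RefSeq windows of this length, 16.6% held a GATA word, 18.6% a RUNX word and 32.7% a GC box. A match is a description of the letters, not a site. In the GENCODE vM21 annotation the S1pr2, S1pr3 and S1pr4 windows lay wholly outside the gene, with RefSeq starts 12, 21 and 5 bases from the nearest annotated transcript start. The Spns2 window lay in an intron of Spns2, before a transcript start 14877 bases downstream of the annotated start of the gene. GC content was 59.2% for S1pr2, 56.4% for S1pr3, 38.8% for S1pr4 and 51.6% for Spns2, against a median of 52.4% over all windows.

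**Figure D1:**
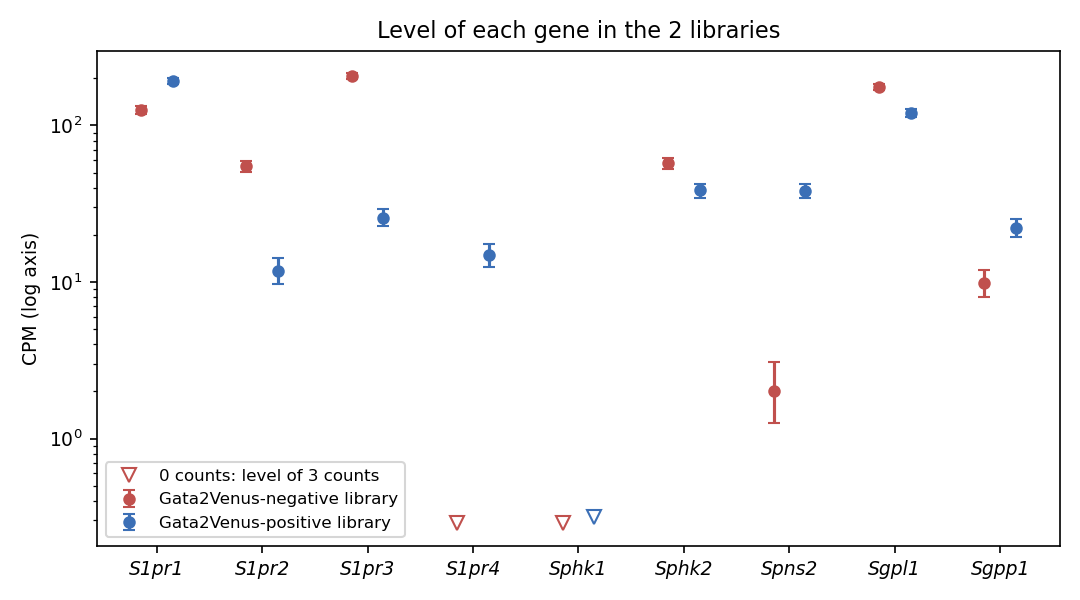
Level of each of the 9 genes as CPM on a log axis, in the Gata2Venus-negative library (red) and the Gata2Venus-positive library (blue), with exact 95% Poisson intervals. Open triangles mark genes with 0 counts, drawn at the level of 3 counts (0.288 and 0.317 CPM). S1pr2 and S1pr3 are higher in the Venus-negative library, and S1pr4 and Spns2 are far higher in the Venus-positive library.

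The receptor genes differed in opposite directions. S1pr3 (chromosome 13, 51408639 to 51422797, mm10 coordinates from GENCODE vM21), a receptor known from endothelium and smooth muscle, had 2148 counts in the Venus-negative and 244 in the Venus-positive library, or 206 CPM (CI 198 to 215) and 25.8 CPM (CI 22.7 to 29.2). It stood 7.997-fold higher in the Venus-negative library, with a log2 ratio of 2.999 (interval 2.81 to 3.20). Of the 2448 genes whose higher library was at 100 to 300 CPM, 245 were past the rule on the same side. Exons of S1pr3 overlap Gm32834, a noncoding RNA gene on the opposite strand that is absent from the counted genes. The part of this overlap in the S1pr3 counts was not tested. S1pr2 (chromosome 9, 20962361 to 20976781), a receptor known for restraining cell migration, had 569 and 111 counts, or 54.7 CPM (CI 50.3 to 59.3) and 11.7 CPM (CI 9.65 to 14.1). Its level was 4.66-fold higher in the Venus-negative library (log2 ratio 2.22, interval 1.92 to 2.53). Of genes whose higher library was at 30 to 100 CPM, 14.9% were past the rule on the same side. S1pr2 no longer passed the rule when a coefficient of variation of 0.4 between the libraries was added to the counting error.

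S1pr1 and S1pr4 were at higher values in the Venus-positive library. S1pr1 (chromosome 3, 115710433 to 115715072), the main S1P receptor of endothelium, had 1303 and 1821 counts, or 125 CPM (CI 118 to 132) and 193 CPM (CI 184 to 202). The difference of 1.54-fold lay beyond counting error (log2 ratio −0.62, interval −0.73 to −0.52) but within 2-fold, so S1pr1 was not past the rule. S1pr4 (chromosome 10, 81497747 to 81500132), a receptor known mainly from lymphoid and myeloid cells, had 0 counts in the Venus-negative and 140 in the Venus-positive library, where it was at 14.8 CPM (CI 12.5 to 17.5). With the 0 set to 3 counts it was at least 51.4-fold higher in the Venus-positive library, and the exact interval of its log2 ratio ended nearer to equality, at −5.37. Of genes whose higher library was at 10 to 30 CPM, 23.8% were past the rule on the same side. A one-sided presence of this kind was not rare: 298 genes, 2.87% of those tested, had 0 counts in the Venus-negative library, and 392 genes had at most 3 counts there and at least 100 in the Venus-positive library. S1pr5, the remaining receptor gene of the family and not among the 9, had 0 counts in both libraries.

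**Figure D2:**
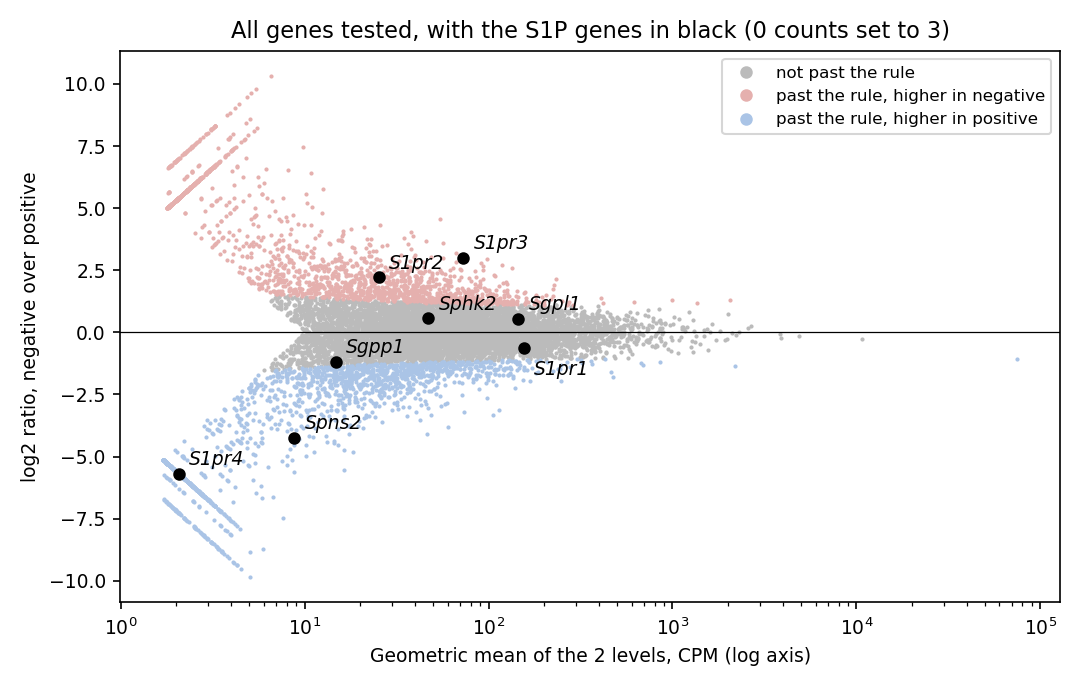
Log2 ratio of negative over positive against the geometric mean of the levels in both libraries (CPM, log axis) for the 10381 genes tested. Pale red and pale blue points are past the rule, grey points are not, and black points are the 8 S1P genes that were tested. Values of 0 are set to 3 counts, and the diagonal streaks hold genes with 0 or few counts in 1 library. S1pr3 and S1pr2 lie above the grey band, and Spns2 and S1pr4 lie among the many low genes seen almost wholly in the Venus-positive library.

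The receptor makeup of the libraries differed accordingly. Levels were divided by exon length (union of exons in the GENCODE basic set, which may not be the annotation the authors counted on) so that genes could be compared with each other. Per kb, the Venus-negative library had S1pr3 at 46.2 CPM per kb and S1pr1 at 41.1 CPM per kb, with S1pr2 at 8.55 and S1pr4 listed at 0. In the Venus-positive library S1pr1 led at 63.2 CPM per kb, and S1pr4 at 6.204, S1pr3 at 5.78 and S1pr2 at 1.84 CPM per kb were far below it. S1pr1 thus made up 42.9% of the summed receptor level per kb in the Venus-negative and 82.1% in the Venus-positive library, and S1pr3 48.2% and 7.504%. As shares of the 4020 and 2316 receptor counts, S1pr3 took 53.4% (exact Clopper-Pearson 95% interval 51.9% to 55.0%) in the Venus-negative and 10.5% (9.31% to 11.9%) in the Venus-positive library. S1pr4 took 6.04% (5.11% to 7.09%) of receptor counts in the Venus-positive library, while its 0 of 4020 counts in the Venus-negative library allows a share of up to 0.0746% at 3 counts (exact interval up to 0.0917%). Counts of S1pr3 per count of S1pr1 were 1.65 and 0.134, a 12.3-fold difference (exact conditional 95% interval 10.6 to 14.4) that depends on neither scaling nor gene length. S1pr3 and S1pr2, higher in the same library, still differed between themselves, since S1pr3 per S1pr2 was 3.78 and 2.20 (ratio 1.72, interval 1.33 to 2.20).

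**Figure D3:**
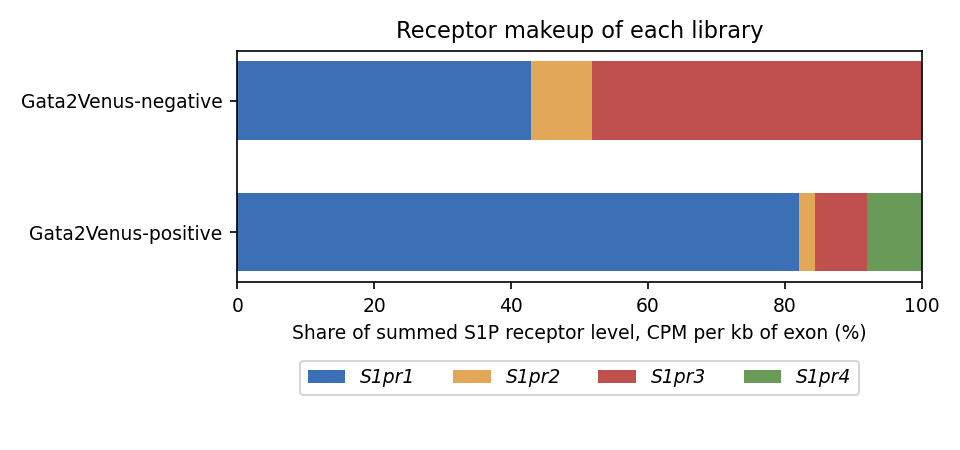
Share of each receptor gene in the summed receptor level, as CPM per kb of exon, in percent, for each library. S1pr3 (red) holds 48.2% of the bar in the Gata2Venus-negative library and 7.504% in the Gata2Venus-positive library, where S1pr1 (blue) holds 82.1%.

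Markers of several cell types moved with the receptors, and their part in these differences was not tested. Counts of markers are of those past the rule, which 15.2% of all genes tested were on the Venus-negative and 14.9% on the Venus-positive side. Of 12 mesenchymal and mural markers, 7 were past the rule on the Venus-negative side, as S1pr2 and S1pr3 were, and 0 on the other. Dcn (log2 ratio −0.74), Col1a2 (−0.13) and Lum (−0.11) had lower values in the Venus-negative library without passing it. Their summed level was 7758 CPM in the Venus-negative and 4792 CPM in the Venus-positive library, with Twist1 at 0 in the Venus-positive library. The mural gene Acta2 had 6863 and 2381 counts, and the pericyte gene Rgs5 had 489 and 2. Of 12 endothelial markers, 8 were past the rule on the Venus-positive side and 0 on the other, where Pecam1 (log2 ratio 0.13) had the higher value without passing it. The endothelial sum was 2860.0 and 5790.4 CPM (log2 ratio of the sums −1.02, against −0.62 for S1pr1 and −4.25 for Spns2), with no marker at 0. Macrophage markers, of which 8 of 11 were past the rule on the Venus-positive side, summed to 227 and 1082 CPM, with Timd4 at 0 in the Venus-negative library. Megakaryocyte markers, of which 7 of 10 were past the rule on that side, summed to 87.0 and 466 CPM, with Gp5 and Gp1bb at 0 in the Venus-negative library. Lymphoid markers summed to 64.7 and 111 CPM. Among the 10, Cd3e, Il7r, Rag1, Rag2 and Pax5 were at 0 in both libraries, and Cd79a and Cd79b in the Venus-negative library alone, as S1pr4 was. Cd79b had 161 counts in the Venus-positive library.

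Synthesis of S1P was represented by Sphk2. Sphk2 (chromosome 7, 45709467 to 45718002), the kinase found in nuclei and mitochondria, had 598 and 363 counts, or 57.4 CPM (CI 52.9 to 62.2) in the Venus-negative and 38.4 CPM (CI 34.5 to 42.5) in the Venus-positive library. The difference (log2 ratio 0.58, interval 0.39 to 0.77) was not past the rule. Its exons overlap those of Rpl18 and Dbp on the opposite strand, and since the use of strand is not given, reads there could have been dropped or assigned to either gene. Sphk1 (chromosome 11, 116530925 to 116536674), the cytoplasmic kinase induced by growth factors, had 0 counts in both libraries, which at 3 counts allows a level of up to 0.288 CPM in the Venus-negative and 0.317 CPM in the Venus-positive library. The exact Poisson intervals reach somewhat higher, to 0.354 and 0.390 CPM. Exons of Sphk1 overlap an antisense gene, Gm29292, that has no row in the tables, and the part of this overlap in the count of 0 was not tested.

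The exporter Spns2 differed most among the S1P genes with counts in both libraries. Spns2 (chromosome 11, 72451638 to 72489904) releases S1P from endothelial cells. It had 21 counts in the Venus-negative and 362 in the Venus-positive library, or 2.02 CPM (CI 1.25 to 3.08) and 38.3 CPM (CI 34.4 to 42.4). It was 18.98-fold higher in the Venus-positive library (log2 ratio −4.25, interval −4.96 to −3.61). Of genes whose higher library was at 30 to 100 CPM, 14.8% were past the rule on the same side. Relative to S1pr1 the difference was 12.3-fold (interval 7.89 to 20.3), with 0.0161 counts of Spns2 per count of S1pr1 in the Venus-negative and 0.199 in the Venus-positive library. Exons of Spns2 overlap Mybbp1a on the opposite strand, a gene with 8729 and 4664 counts. Mybbp1a thus had more counts in the library where Spns2 had fewer, and the part of the overlap in the Spns2 counts was not tested.

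Among the 9 genes, those for enzymes that remove S1P were not past the rule. Sgpl1 (chromosome 10, 61098642 to 61147703), the lyase that cleaves S1P irreversibly, had 1836 and 1134 counts, or 176 CPM (CI 168 to 185) and 120 CPM (CI 113 to 127). It was 1.47-fold higher in the Venus-negative library (log2 ratio 0.56, interval 0.45 to 0.66). Sgpp1 (chromosome 12, 75714249 to 75735729), a phosphatase of the endoplasmic reticulum that returns S1P to sphingosine, had 102 and 210 counts, or 9.80 CPM (CI 7.99 to 11.9) and 22.2 CPM (CI 19.3 to 25.4). Its 2.27-fold higher level in the Venus-positive library (log2 ratio −1.18, interval −1.54 to −0.83) lay past 2-fold, but its interval did not. The balance between the kinase and the lyase was nearly the same in both libraries, with 0.326 and 0.320 counts of Sphk2 per count of Sgpl1 (ratio 1.02, interval 0.874 to 1.19). By contrast, Sgpp1 per Sgpl1 was 3.33-fold higher in the Venus-positive library (interval 2.59 to 4.31).

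Ordered by level per kb in the Venus-negative library, S1pr3 (46.2 CPM per kb), Sgpl1 (42.7) and S1pr1 (41.1) led, followed by Sphk2 (13.8), S1pr2 (8.55), Sgpp1 (1.73) and Spns2 (0.622). The intervals of S1pr3 and Sgpl1 overlapped, as did those of Sgpl1 and S1pr1, so that counting error does not separate these neighbours. In the Venus-positive library the order was S1pr1 (63.2), Sgpl1 (29.0), Spns2 (11.8), Sphk2 (9.23), S1pr4 (6.204), S1pr3 (5.78), Sgpp1 (3.93) and S1pr2 (1.84). There the intervals of S1pr4 and S1pr3 overlapped and those of the other neighbours did not. The lyase was thus near the top in both libraries, while the exporter stood last of the detected genes in the Venus-negative and was the third in the Venus-positive library.

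Other genes of S1P handling outside the 9 were described by lists. In the list of further receptors, carriers, exporters and phosphatases, 4 of 8 genes passed the filter, and 1 was past the rule. This was Mfsd2b, the S1P exporter of red cells and platelets, with 1 and 364 counts (log2 ratio −8.65, interval −13.95 to −6.16). The exporter genes Spns2 and Mfsd2b were therefore both higher in the Venus-positive library. Mfsd2a, also in this list, had 0 and 1 counts and did not pass the filter. The erythroid markers Klf1, Gata1, Epor, Hemgn and Car1 were at 0 in the Venus-negative library and detected in the Venus-positive library. Gata1, Hemgn and Car1 were past the rule, as 14.9% of all genes tested were on that side. Klf1 and Epor did not pass the filter. The globin genes went the other way without passing the rule, with log2 ratios of 1.18 for Hba-x, 0.73 for Hbb-y and 0.89 for Hbb-bh1. The summed level of the 10 erythroid markers was 325 CPM in the Venus-negative and 259.7 CPM in the Venus-positive library, and most of it came from the globin genes Hba-x, Hbb-y and Hbb-bh1. The megakaryocyte sums given above moved with Mfsd2b as well, and the part of these cells in its difference was not tested. The lipid phosphatase genes Plpp3 (126 and 151 CPM) and Plpp1 (83.5 and 61.7 CPM), whose products dephosphorylate S1P outside the cell, were not past the rule. The further phosphatase gene Sgpp2 had 0 counts in the Venus-negative and 34 in the Venus-positive library and did not pass the filter. Apom, the S1P carrier of plasma lipoproteins, had 0 counts in both libraries.

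Ceramide is the precursor of sphingosine. Of 17 genes of ceramide synthesis 12 passed the filter. Past the rule were 3 on the Venus-positive side, against 14.9% of all genes tested, and 0 on the Venus-negative side, against 15.2%. The median log2 ratio was −0.38 against −0.0023 over all genes tested. The 3 genes were Kdsr, the ketodihydrosphingosine reductase (14.9 and 48.5 CPM, log2 ratio −1.70, interval −1.98 to −1.44), the ceramide synthase gene Cers6 (10.4 and 28.02 CPM, log2 ratio −1.43) and the desaturase gene Degs1 (130 and 280 CPM, log2 ratio −1.10, interval −1.20 to −1.01). Cers2, with Degs1 the list's most counted gene, reached 135 and 212 CPM without passing the rule. Of 17 genes that release or use ceramide 13 passed the filter, with 2 past the rule on the Venus-positive side, a share near the 14.9% of all genes tested, 0 past it on the Venus-negative side and a median log2 ratio of 0.01. The neutral ceramidase gene Asah2 had 0 and 110 counts, at least 40.4-fold higher in the Venus-positive library with the 0 set to 3 counts (exact interval of the log2 ratio up to −5.01), and the ceramide kinase gene Cerk had 43 and 204 (5.22-fold). The acid ceramidase gene Asah1, which frees sphingosine in lysosomes, was at 133 and 125 CPM, and the sphingomyelinase gene Smpd4 at 95.8 and 99.1 CPM.

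The list of genes downstream of the receptors also held regulators of the receptors, such as Klf2 and Cd69. In this mixed list 9 of the 19 genes that passed the filter were past the rule. Of these, 8, with Klf2 among them, were higher in the Venus-positive and 1 in the Venus-negative library. The median log2 ratio was −0.76 against −0.0023 over all genes tested, of which 14.9% were past the rule on the Venus-positive side. The endothelial, macrophage and megakaryocyte sums given above were higher in the Venus-positive library too, and their part in this list was not tested. With the coefficient of variation of 0.4 added, 4 genes over all the further lists were past the rule on the Venus-positive side. The nucleotide exchange factor genes Arhgef11 (4 and 186 counts, 51.2-fold) and Arhgef12 (34 and 318 counts, 10.3-fold), which act below G proteins, were higher in the Venus-positive library. The G protein gene Gnaq (4.52-fold), the arrestin gene Arrb1 (3.75-fold) and the protein kinase gene Rock1 (2.82-fold) took the same direction. Klf2, a flow-responsive transcription factor known to drive S1pr1, was at 16.4 and 48.0 CPM (2.92-fold higher in the Venus-positive library, log2 ratio −1.55, interval −1.81 to −1.29). The list's single gene on the other side, chosen for naming after seeing its values, was the G protein gene Gna12 at 20.7 and 7.82 CPM (2.65-fold). The most counted genes, Gnai3 (521 and 366 CPM) and Rac1 (400 and 485 CPM), were not past the rule. Cd69, whose product takes S1pr1 off the surface of lymphocytes, had 0 counts in both libraries.

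**Figure D4:**
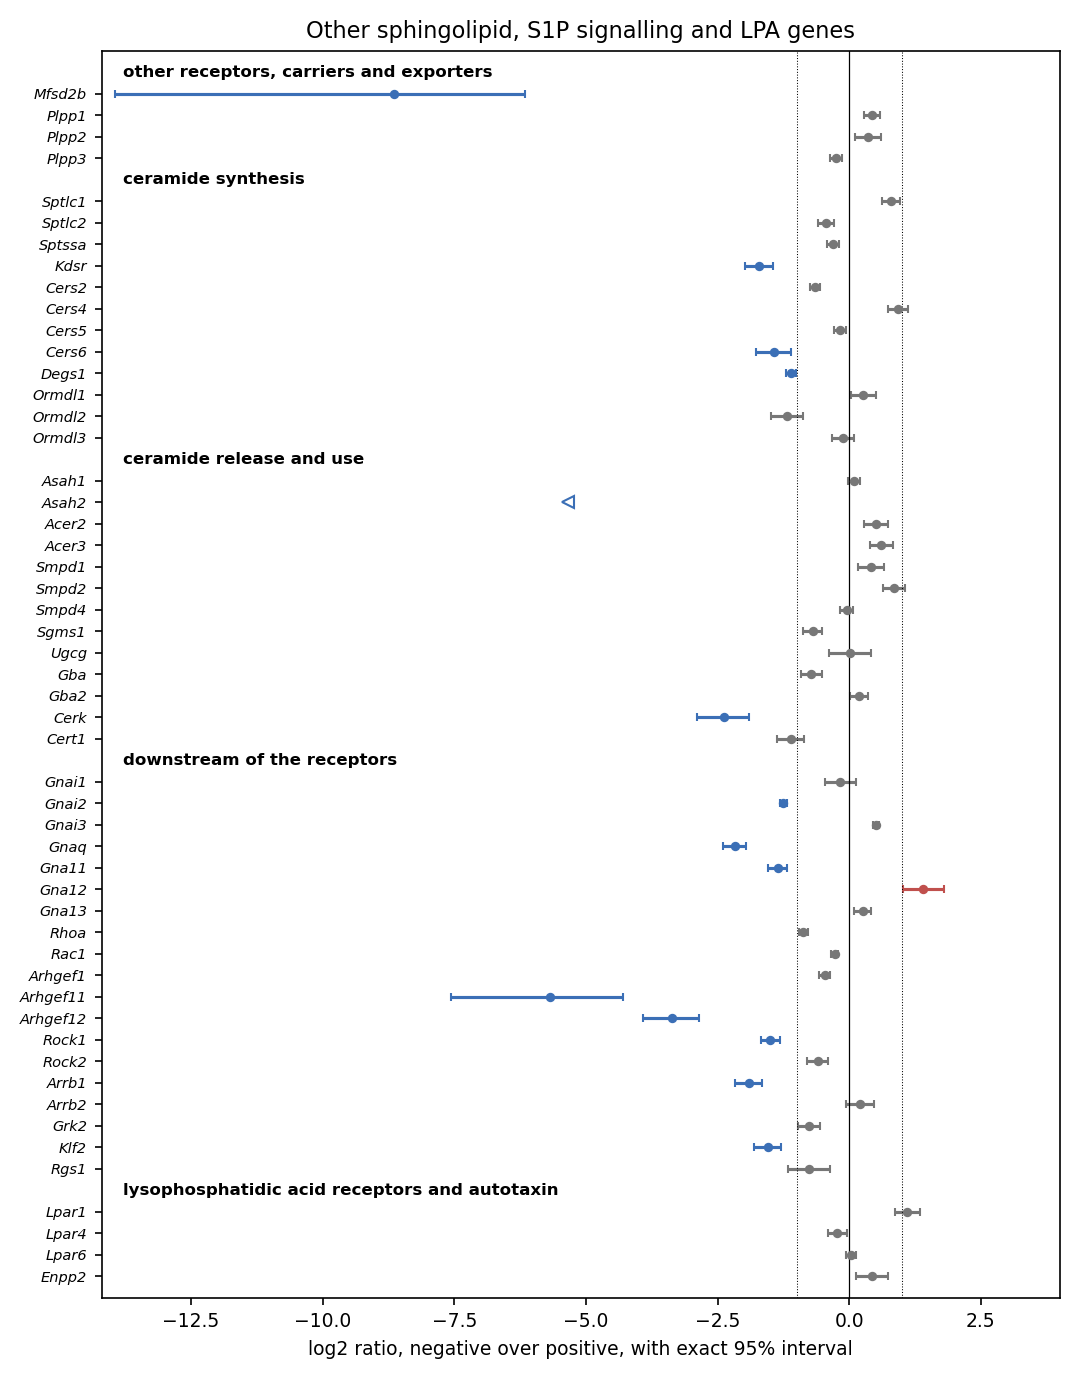
Log2 ratio of negative over positive, with exact 95% intervals, for the other sphingolipid, S1P signalling and lysophosphatidic acid (LPA) genes that passed the filter. Red marks genes past the rule and higher in the Venus-negative library, blue those higher in the Venus-positive library and grey the rest; dotted lines mark 2-fold, and the open triangle is a bound with 0 set to 3 counts. Of 52 genes, 14 are past the rule on the positive side and 1, Gna12, on the negative side.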

How the data were processed

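RNA of 2 libraries, 1 per group, was extracted with the mirVana kit and amplified by SMARTER, per the labels' protocols. TopHat, Cufflinks and HTSeq and genome build mm10 are named per the submitters' processing notes, while no source used here gives versions, the gene annotation or the strand setting. The authors deposited raw whole-number counts for each gene symbol. The 5 HTSeq rows that name no gene were left out of library sizes and ratios; of all counts, alignments that are not unique took 45.5% in the Venus-negative and 48.2% in the Venus-positive library, no feature 5.93% and 7.996%, and ambiguous reads 0.474% and 0.412%.

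Library totals over genes were multiplied by TMM factors of 1.03 and 0.974 (edgeR 4.0.16, R 4.3.3). With 1 library per group a rule of size replaced a test, with Clopper-Pearson intervals of the ratio given a gene's total; 0 was set to 3 counts for bounds. The rule of size was tested on simulated counts that held counting error alone, which cannot show how it behaves under variation between libraries. The 9 genes, the lists and the rule were chosen with earlier results of these data known. Named were all 9 genes, the sort markers, and of each further list the genes past the rule (the 6 with intervals farthest from equality where more passed) and the 2 most counted; Ptprc, Runx1 and other markers come from the marker lists, and genes at 0 were named after their values were seen. Some list members that enter the counts and sums are not reported here by name. Alternatives were scaling by total counts and by DESeq2 1.42.0 size factors, filters of 1 CPM and 10 counts and none, a 2-fold ratio without the interval, a library-to-library coefficient of variation of 0.4 added to the counting error, and removal of genes with 3 or fewer counts on either side.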

Additional observations from a re-analysis of the deposited data

How the results depend on the processing

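Of the 7 alternatives, 2 change the ratios of the S1P genes, by shifting all genes alike, and the others change only which genes pass. With a library-to-library coefficient of variation of 0.4 added, S1pr2 was no longer past the rule, so that 1 of the 9 genes was higher in the Venus-negative library and 2 in the positive. The same setting left 663 and 693 of all genes past the rule on the negative and positive side, where 1582 and 1545 had been, and 0 and 4 genes of the 5 further lists. Without genes at 3 or fewer counts in 1 library S1pr4 drops out, and 1 of the 9, Spns2, was higher in the Venus-positive library. Taking a 2-fold ratio without the interval adds Sgpp1 (log2 ratio −1.18), which makes 3. Filters of 1 CPM and 10 counts, or none, put 2484 and 2503 of all genes past the rule on the positive side. Genes of the 5 lists higher in the Venus-negative library numbered 1, and became 2 when scaled by total counts, by DESeq2 size factors or without the interval, and 3 under either lower filter. The median log2 ratio over all genes tested shifted by 0.08 under scaling by total counts. No paired analysis was possible because each group has 1 library. Depth limits the low genes: 21 counts of Spns2 leave an interval of 1.25 to 3.08 CPM.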

Other observations

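Receptors for lysophosphatidic acid, a lipid related to S1P that is also read by G protein-coupled receptors, were not past the rule. Of 7 genes in the list, which also holds Enpp2, 4 passed the filter and 0 were past the rule, and the median log2 ratio was 0.23. Lpar6, the most counted receptor gene, was at 191 and 187 CPM in the Venus-negative and Venus-positive library (log2 ratio 0.03, interval −0.06 to 0.12), and Lpar4 at 48.6 and 56.8 CPM. Enpp2, which encodes the enzyme autotaxin that makes the ligand, was at 22.4 and 16.6 CPM. Named after their values were seen, Lpar1 was at 45.0 and 20.9 CPM (2.15-fold, interval of the log2 ratio 0.86 to 1.35), and Lpar3 had 104 counts in the Venus-negative library and 0 in the positive, just under the filter at 9.99 CPM.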
